A study of Glycine max with 16 samples.

Results

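LEAFY COTYLEDON1 (LEC1) was found at many places on soybean chromatin at all 3 embryo stages sampled. A minority of these places carried a peak that was markedly narrower at mid-maturation than at the cotyledon stage. Such narrowing regions numbered 2686, out of 29590 regions whose width change could be measured and 78759 merged regions in all. They were chosen on measured widths: the peaks of the 3 stages were joined where they overlapped by at least 1 bp, and a joined region was eligible if it was under 900 bp wide, held exactly 1 peak of each stage and was also overlapped by a peak of a second antibody. A region was counted as narrowing if its mid-maturation peak was at least 100 bp narrower than its cotyledon-stage peak. The difference between these widths is therefore a property of the choice and is described here without a test.

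LEC1 is a B-type subunit of nuclear factor Y, a protein complex that recognises CCAAT boxes in plant and animal DNA. In plants it is known as a master regulator of embryo development: it acts early on embryo form and the greening of the embryo, and later on the accumulation of storage protein and oil. The same protein is thus present while the programme of the seed changes.

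The data come from chromatin immunoprecipitation and sequencing of embryos of soybean (Glycine max) of cultivar Williams 82, grown in a greenhouse, with no mutant or treated plants named in the labels. Seeds 2.5 to 3.5 mm long gave the cotyledon stage (COT), seeds 6 to 7 mm long early maturation (EM), and seeds with a weight of 200 to 250 mg mid-maturation (MM). An antibody against recombinant GmLEC1 was used at each stage, and an antibody against a GmLEC1 peptide at EM. Each combination had 2 biological replicates of ChIP and of input chromatin, and 1 peak list was given for each. The labels name no tissue within the embryo, so a peak cannot be assigned to one.

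The numbers of peaks were 51845 for COT, 55140 for EM and 64146 for MM, and 49566 for the peptide antibody. Peaks lie on a grid of 50 bp bins, so every width is a multiple of 50 bp and a loss of 100 bp is a loss of 2 bins. With 1 list per stage and antibody there is no spread between replicates for any value below, the sequencing depth is unknown, and no p-value is given. Quartiles describe the spread between regions, which are not replicates, and exact binomial (Clopper-Pearson) 95% intervals cover counting error only. The genome sequence and gene annotation of the build in the peak names, Gmax275, were not used here, so regions are given by position, without genes or sequence.

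Narrowing was the less common direction of change. The MM peak was at least 100 bp narrower than the COT peak in 9.08% of the eligible regions (95% interval 8.75 to 9.41%). It was within 50 bp of the COT width in 11659 regions (39.4%) and at least 100 bp wider in 15245 (51.5%). Over all eligible regions the median change, MM minus COT, was 100 bp (quartiles 0 and 150 bp). The narrowing regions had a median change of -150 bp (quartiles -200 and -100 bp), 250 bp below that of all eligible regions. The longest MM list also has the widest peaks of the 3 stages, and how far list length and peak width follow sequencing depth was not tested.

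**Figure D1:**
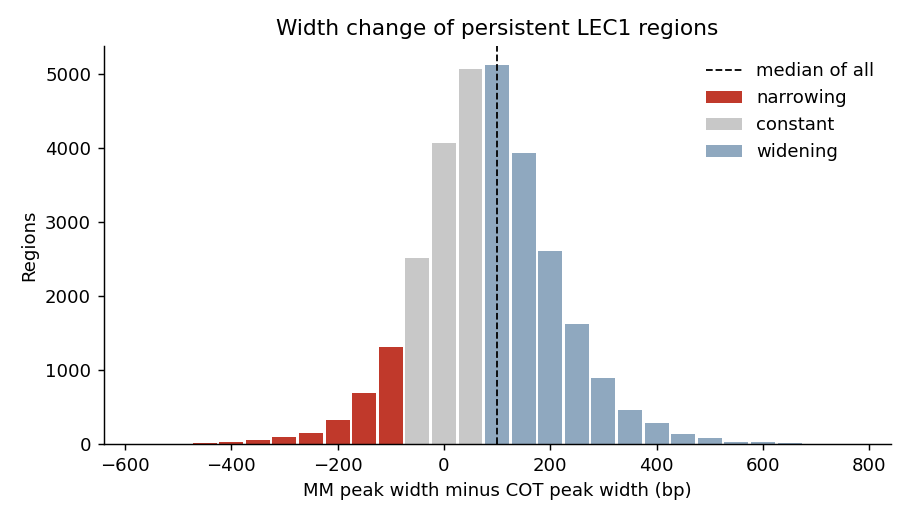
Number of eligible regions (vertical axis) at each difference between MM and COT peak width (horizontal axis, bp). The 2686 narrowing regions, in red, form the lower flank of a distribution with a single mode whose median, the dashed line, is at 100 bp.

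Most losses were small. A loss of 100 bp was found in 1319 members (49.1%) and a loss of 150 bp in 688 (25.6%). Losses of 200 or 250 bp were found in 476 members (17.7%) and losses of 300 bp or more in 203 (7.56%), up to 550 bp. The MM peak had a median of 66.7% of the COT width (quartiles 57.1 and 75%, range 18.2 to 88.2%). In 598 members (22.3%) it had at most 50% of it. Around the threshold the counts ran on smoothly: 2519 regions lost 50 bp and stayed just outside. The 1319 regions just inside had median widths of 400 bp at COT, 350 bp at EM and 300 bp at MM, and the 2519 just outside had 400, 350 and 350 bp in the same order of stages.

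A change of 100 bp between lists was common even within a stage. At EM, where the antibodies can be compared on the same stage, the peptide peak was at least 100 bp narrower than the anti-recombinant peak in 30.5% of all eligible regions and at least 100 bp wider in 20.8%. The narrowing regions, which were not chosen on either EM width apart from the limit on the merged region, held 821 (30.6%) and 677 (25.2%) such cases. The share narrower with the peptide antibody was thus near that of all eligible regions, and the median difference, peptide minus anti-recombinant, was 0 bp in both. Across all eligible regions the Spearman's rho of peak widths was 0.643 between the EM lists, 0.725 between MM and EM and 0.564 between MM and COT. These correlations run across regions of the same genome and the same lists, and they are given as a description.

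Narrowing regions were among the wider ones at COT and among the narrower ones in the remaining lists. Their median width was 450 bp at COT (quartiles 350 and 550 bp), 350 bp at EM (250 and 450 bp) and 300 bp at MM (200 and 400 bp). With the peptide antibody at EM it was 300 bp (250 and 450 bp). All eligible regions had medians of 350 bp at COT, 400 bp at EM, 450 bp at MM and 400 bp in the EM peptide list. The merged regions were no wider than the rest, with a median of 450 bp in members and 450 bp in all eligible regions.

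**Figure D2:**
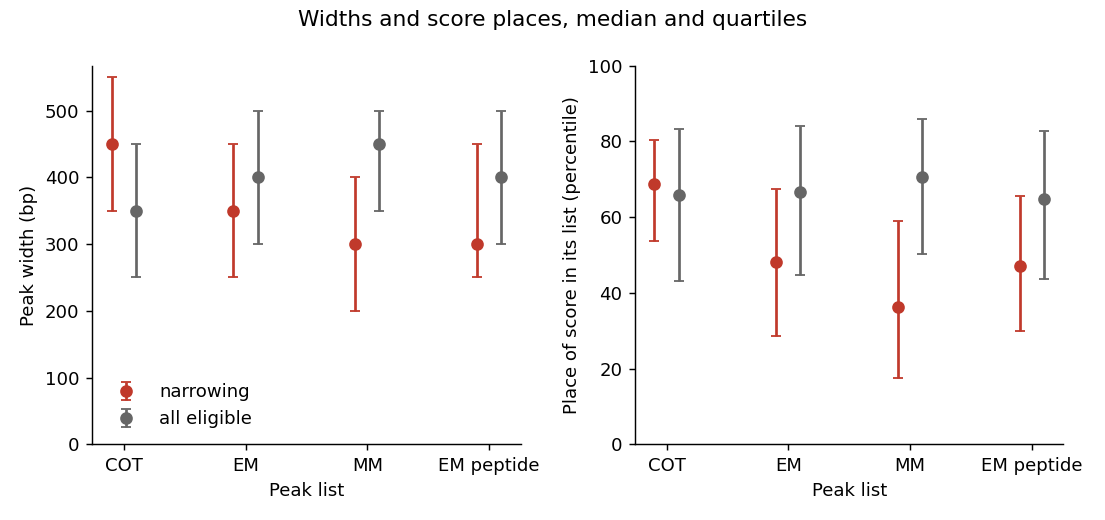
Peak width in bp (left) and place of the score within its list as a percentile, 100 being the highest (right), in each of the 4 lists. Points are medians and bars run between the quartiles, for the 2686 narrowing regions (red) and all 29590 eligible regions (grey); the members are wider than the rest at COT only, with a median of 450 against 350 bp.

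The EM widths were not used in the choice, apart from the limit of 900 bp on the merged region, which includes the anti-recombinant EM peak. In mean values the members had EM peaks of 357 bp, against 409 bp over all eligible regions, and EM peptide peaks of 349.7 bp, against 393 bp. The difference was smaller with lists of equal length, which leave out low-scoring peaks: the mean EM width was 411 bp in members and 428 bp in all eligible regions, and both medians were 400 bp. Membership also rose with the COT width. No list holds peaks under 100 bp, so a peak of 150 bp cannot lose 100 bp. At the other end, the limit of 900 bp on the merged region leaves a wide COT peak little room for a wider MM peak. Regions that widened past this limit are not counted. How far either limit accounts for the shares was not tested. Of the regions with a COT width of 200 bp, 2.35% narrowed, of those with 400 bp 9.75%, of those with 600 bp 20.8% and of those with 800 bp 50%.

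Members were therefore set beside the other eligible regions of the same COT width. In each of the 13 width classes from 200 to 800 bp that held at least 20 regions of either kind, the median EM width was lower in the members, by 100 to 200 bp. The median EM peptide width was lower in all 13 as well, by 50 to 150 bp. At a COT width of 400 bp, 376 members had a median EM width of 300 bp (quartiles 250 and 400 bp), against 450 bp (400 and 500 bp) in 3482 other regions. In the peptide list the same members had 300 bp (200 and 350 bp), against 450 bp (350 and 500 bp). At a COT width of 600 bp, 172 members had medians of 450 bp at EM and 450 bp in the peptide list, against 650 and 600 bp in 653 other regions. With lists of equal length, 11 classes could be compared, and members had the lower median in all 11 for either antibody. Within a COT width class the members are the regions with the shorter MM peaks, and EM and MM widths go together across the genome, so these values say how the EM peaks looked and are not separate evidence of a change.

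**Figure D3:**
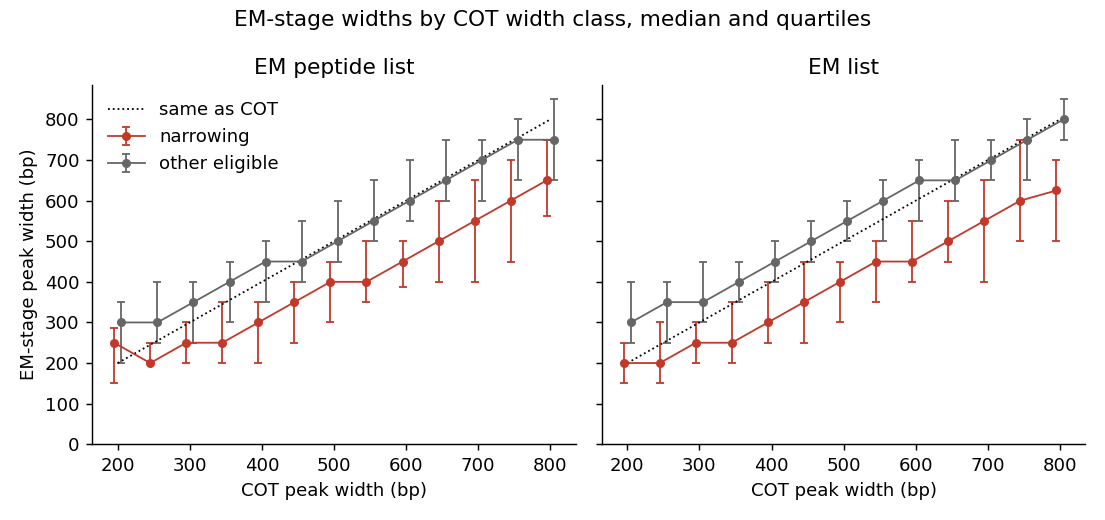
Width of the EM-stage peak in bp (vertical axis) for regions of each COT peak width (horizontal axis, bp), in the EM peptide list (left) and the EM anti-recombinant list (right). Points are medians and bars quartiles; the narrowing regions (red) lie below the other eligible regions (grey) in all 13 classes, and at a COT width of 400 bp they have 300 bp against 450 bp in either list.

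The order of the widths within a region varied widely. The EM width was strictly between those of the MM and COT peaks in 911 members (33.9%), against 26.1% of all eligible regions. The latter include the 11659 regions with an MM width within 50 bp of COT, where no width on the 50 bp grid can be strictly between. In the 15245 regions at least 100 bp wider at MM, the share strictly between was 44.7% for the EM width. For the peptide width it was 45.5%, and both are above the members' shares. It equalled the MM width in 441 members (16.4%), against 22.0%, and the COT width in 407 (15.2%), against 14.7%. It was below both in 562 members (20.9%), against 17.0%, and above both in 365 (13.6%), against 23.6%. The peptide width was strictly between in 851 members (31.7%), against 26.3% of all eligible regions, below both in 674 (25.1%), against 23.5%, and above both in 347 (12.9%), against 18.6%. It equalled the MM width in 508 members (18.9%), against 18.5%, and the COT width in 306 (11.4%), against 16.1%. An EM width equal to that of COT, a peptide width equal to that of MM and a peptide width below both were thus about as common in members as in all eligible regions, and a width strictly in between was found in a minority of either.

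Set against COT, the EM peak was at least 100 bp narrower in 1419 members (52.8%), against 13.2% of all eligible regions. The peptide peak was at least 100 bp narrower than the COT peak in 1583 members (58.9%), against 17.4%. Set against the EM peak, the MM peak was at least 100 bp narrower in 1169 members (43.5%), against 14.1%. Against the peptide peak it was so in 1026 (38.2%), against 12.0%. Each of these comparisons shares its COT or its MM list with the choice of the members, which raises the members' share by construction. Both EM-stage peaks were narrower than the COT peak in 1520 members (56.6%), against 13.1% of all eligible regions, and neither was in 259 (9.64%), against 59.7%; this comparison, too, shares its COT list with the choice.

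Members were also grouped by the width of the anti-recombinant EM peak set against the COT peak. In the 1419 members with an anti-recombinant EM peak at least 100 bp narrower than the COT peak, the peptide peak had a median width of 350 bp (quartiles 250 and 450 bp). In the 1112 members (41.4%, against 42.8% of all eligible regions) with an EM peak within 50 bp of the COT width, it had 300 bp (250 and 400 bp). In the 155 members (5.77%, against 44.0%) with an EM peak at least 100 bp wider than the COT peak, it had 300 bp (200 and 400 bp). The anti-recombinant EM medians of these groups, 300, 400 and 500 bp, follow from how they were formed. Their COT medians differed as well, at 450, 400 and 350 bp, so the peptide medians do not compare regions of equal COT width. The stage at which members became narrower cannot be read from these lists.

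The EM-stage medians differed little between members of small and large loss. The loss is the COT width minus the MM width, so the COT and MM medians of these groups are set by the grouping. Members that lost 100 bp had median widths of 400 bp at COT, 350 bp at EM and 300 bp at MM. Those that lost 200 bp had 450, 350 and 250 bp in the same order. The 109 members that lost 350 bp or more had 650, 400 and 200 bp. The peptide medians of these groups were 300, 350 and 350 bp. The place of the COT score was nearly the same in all, with a median percentile of 68.8 for the smallest loss and 69.2 for the largest.

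At most members the MM peak lay within the boundaries of the COT peak. It lay wholly inside in 2427 members (90.4%), against 23.0% of all eligible regions, a share that the choice of a narrower MM peak raises. At 1501 members (55.9%) both edges had moved inwards by at least 50 bp, against 5.07% of all eligible regions. At 607 (22.6%, against 10.6%) only the edge at the lower coordinate had. At 578 (21.5%, against 11.1%), a nearly equal number, only the edge at the higher coordinate had. A move of both edges is itself a loss of at least 100 bp, so all regions with it are members. By the choice, every member has at least 1 edge that moved inwards by 50 bp or more. With 100 bp as the step, 265 members (9.87%) had lost width on both sides, against 0.896% of all eligible regions. At this step 967 members (36.0%, against 4.53%) had lost it at the lower coordinate alone and 886 (33.0%, against 4.58%) at the higher alone. The midpoint of the MM peak lay a median of 50 bp from that of the COT peak, and within 50 bp in 1969 members (73.3%). Over all eligible regions the median was 25 bp, and 85.1% were within 50 bp, so midpoints were farther apart in members. Where only 1 edge moved inwards, a loss of at least 100 bp puts the midpoints at least 50 bp apart. The choice of members therefore raises this distance too.

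Most members kept a common centre. A stretch of bases shared by the peaks of all 4 lists was present in 2572 members (95.8%), with a median length of 200 bp, and in 98.3% of all eligible regions, with a median of 300 bp. The EM peak lay inside the COT peak in 1729 members (64.4%), against 24.7% of all eligible regions, and the peptide peak in 1831 (68.2%), against 31.9%, shares that a wide COT peak raises. At 50 members (1.86%) the peptide peak and the MM peak had no base in common, against 0.237% of all eligible regions. For the EM and MM peaks this was so at 47 members (1.75%), against 0.206%. In such regions the peaks of the later lists took separate positions. A narrow MM peak limits the shared stretch and leaves fewer bases for another peak to overlap. The choice of members therefore affects the shared length and the shares without a common base too.

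**Figure D4:**
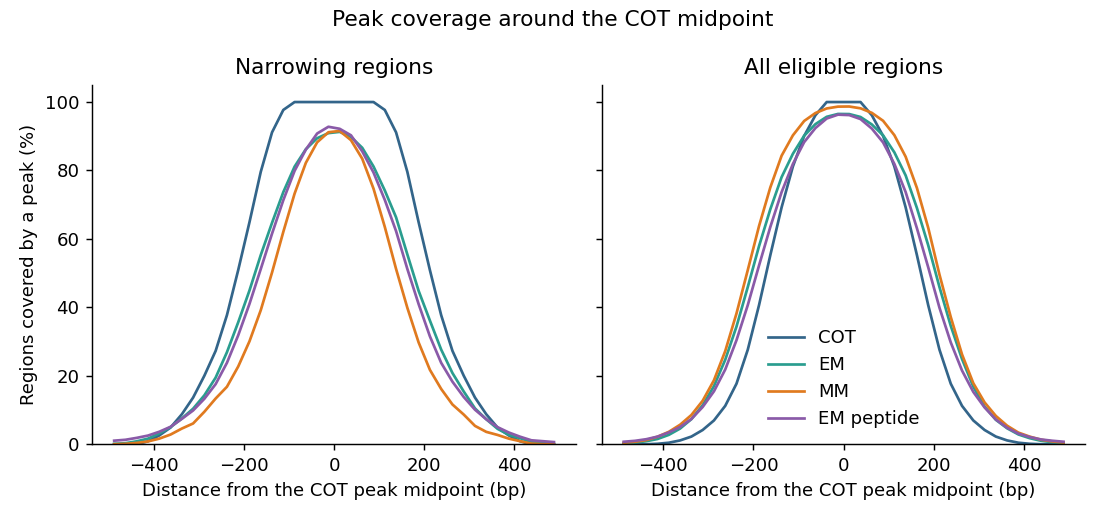
Share of regions covered by a peak (vertical axis, %) at each distance from the midpoint of the COT peak (horizontal axis, bp), for the narrowing regions (left) and all eligible regions (right), with 1 line per list. At 187.5 bp above the midpoint, 64.9% of the narrowing regions were covered at COT, 44.8% at EM and 29.7% at MM, against 40.7, 58.2 and 63.3% of all eligible regions.

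The score gives a second description of the same peaks. The authors' scores have no stated unit, and are used here as places within their own list, a percentile of 100 being the highest score; the wider the peak, the higher its score, with a rank correlation (Spearman's rho across peaks) of 0.865 at COT, 0.854 at EM and 0.881 at MM, and 0.844 for the peptide antibody. Members had a median percentile of 68.7 at COT (quartiles 53.7 and 80.5), 48.1 at EM (28.7 and 67.4), 36.3 at MM (17.5 and 58.9) and 47.1 in the peptide list (29.8 and 65.5). All eligible regions had medians of 65.8 at COT, 66.6 at EM, 70.6 at MM, with 64.7 for the peptide antibody. The lists differ in length, and places in different lists do not measure how much LEC1 was bound.

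Few members were among the highest-scoring peaks of any list. Since the score follows the width and members were chosen for an MM peak narrower than the COT peak, a low share at the top of the MM list and a high one at its bottom are built into the choice. The highest-scoring 10% of the MM list held 89 members (3.31% of them), against 18.0% of all eligible regions. The share was 109 members (4.06%) against 15.7% for the EM list, and 90 (3.35%) against 14.3% for the peptide list. At COT it was 249 members (9.27%) against 14.9%. At the other end, 404 members (15.0%) were in the lowest-scoring 10% of the MM list, against 2.25% of all eligible regions, and 188 (7.00%) in that of the EM list, against 3.25%. For their width the COT peaks of members also scored low. In all 13 width classes their median COT percentile was below that of the other regions, and at 400 bp it was 68.5 against 81.4. Within a class the members are the regions with the shorter MM peaks. How far this choice accounts for their lower COT places was not tested.

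Loss of width and loss of place usually went together, but not always. The MM place was lower than the COT place in 2427 members (90.4%), against 45.0% of all eligible regions, again a comparison that the choice of members affects. These and the members with an MM peak inside the COT peak are equal in number by coincidence, and 2237 regions belong to both. In 259 members (9.64%) the MM peak was narrower and yet took a higher place than the COT peak. Their median percentiles were 60.8 at COT, 66.7 at EM, 73.4 at MM, with 66.9 for the peptide antibody, and their median widths were 550, 450, 400 and 400 bp in the same order. The other 2427 had median widths of 400, 350, 250 and 300 bp and a median EM percentile of 46.3.

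The members with the most width lost are given next, all in coordinates of Gmax275. The first lay on chromosome 6 at 7038401 to 7039250 and had peaks of 850 bp at COT, 600 bp at EM and 300 bp at MM, and of 600 bp with the peptide antibody. The second, on chromosome 17 at 4774101 to 4774800, had 700 bp at COT, 500 bp at EM and 150 bp at MM, and 500 bp with the peptide antibody. The third, on chromosome 12 at 8085201 to 8086000, had 700 bp at COT, the same at EM and 200 bp at MM, and 450 bp with the peptide antibody. All 3 kept most of their width at EM with the anti-recombinant antibody and had a short MM peak inside the COT peak. The third was also the strongest of them at COT, in place 1946, but took place 54962 at MM, after 6378 at EM, and 18955 with the peptide antibody.

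Chromosome 9 held 3 of the 10 largest losses. The region at 39507751 to 39508450 had 650 bp at COT, 550 bp at EM and 150 bp at MM, and 600 bp with the peptide antibody. At 3928001 to 3928750 the widths were 650 bp at COT, 600 bp at EM and 150 bp at MM, but 200 bp with the peptide antibody. At 1221501 to 1222300 they were 800 bp at COT, 350 bp at EM and 300 bp at MM, but 750 bp with the peptide antibody. In these last 2 regions the antibodies gave opposite pictures of EM: the peak at 3928001 was wide with the anti-recombinant antibody and short with the peptide antibody, and the reverse was seen at 1221501. The peptide peak at 3928001 to 3928750 also lay apart from the MM peak, at 3928101 to 3928300 against 3928501 to 3928650.

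The other 4 had peaks of at most 450 bp in both EM lists. On chromosome 13 at 26349451 to 26350250 the widths were 800 bp at COT, 400 bp at EM and 300 bp at MM, and 450 bp with the peptide antibody. On chromosome 3 at 44464751 to 44465400 they were 650, 300 and 150 bp over the stages and 200 bp with the peptide antibody, whose peak shared no base with the EM and MM peaks. On chromosome 12 at 36595201 to 36595950 they were 750, 300 and 250 bp, and 250 bp with the peptide antibody on the very interval of the MM peak, 36595451 to 36595700. The last, on chromosome 1 at 51502501 to 51503200, had 700, 400 and 200 bp, and 150 bp with the peptide antibody. All 10 MM peaks were in the lower-scoring 50% of the MM list, in places 33253 to 60151.

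**Figure D5:**
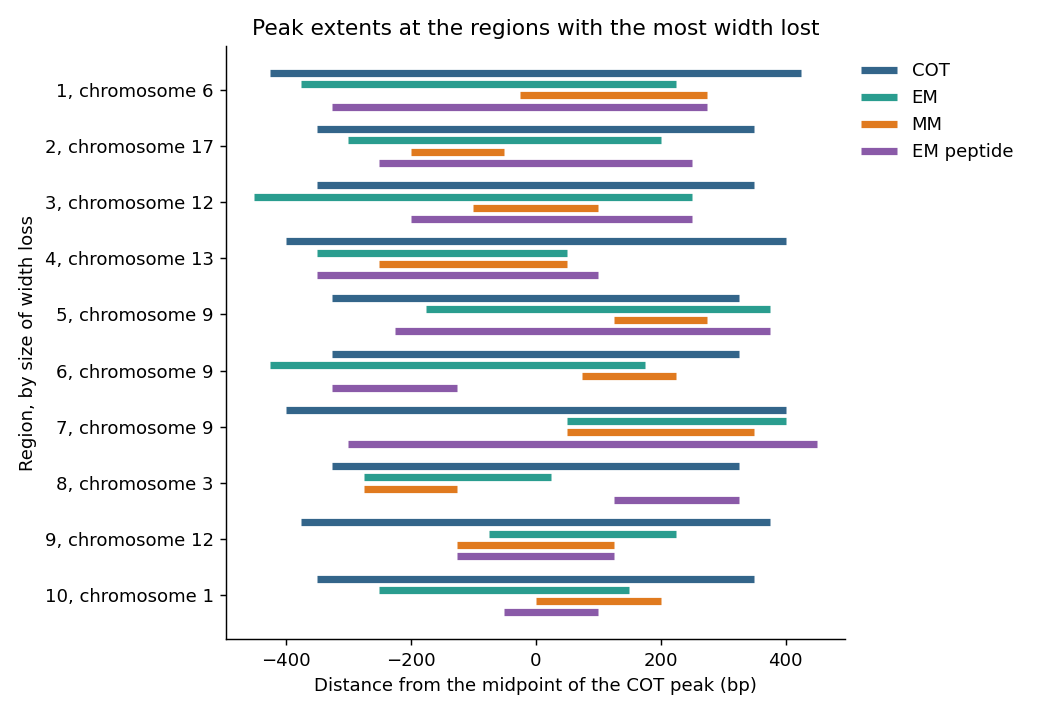
Extent of the COT, EM, MM and EM peptide peaks (coloured bars) at the 10 regions with the most width lost, as distance in bp from the midpoint of the COT peak (horizontal axis), with the largest loss at the top. The MM bar lies within the COT bar in all 10, and the peptide bar is apart from the MM bar in the regions ranked 6 and 8.

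The 5 members with the strongest EM peaks had lost 100 or 150 bp, as had 74.7% of all members. The highest EM score belonged to a region on chromosome 15 at 12365651 to 12366300, with 600 bp at COT, 600 bp at EM, 500 bp at MM and 650 bp with the peptide antibody. By score it was in place 245 at COT, 54 at EM and 3698 at MM, and in place 2191 with the peptide antibody. It was also the highest-scoring COT peak among the regions just inside the threshold. Its counterpart just outside, on chromosome 1 at 473451 to 474200, had 650, 700 and 600 bp over the stages, and its places were 23 at COT, 137 at EM and 1881 at MM. The next members by EM score lay on chromosome 6. They were at 2574351 to 2575150, with 750, 600 and 650 bp over the stages, at 14331751 to 14332450, with 700, 600 and 550 bp, and at 6104001 to 6104650, with 650, 550 and 550 bp. The region at 14331751 to 14332450 was the highest-scoring member at COT, in place 117, and took place 221 at EM and 2201 at MM.

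A single region was among the first 5 members in both EM lists. It lay on chromosome 15 at 40067301 to 40068100, with 750 bp at COT, 600 bp at EM and 600 bp at MM, and its places were 133 at COT, 231 at EM and 313 at MM. With the peptide antibody it had 900 bp, wider than at any stage, and place 27. The second member by peptide score, on chromosome 3 at 42768001 to 42768650, had 650, 450 and 400 bp over the stages but a peptide peak of 1500 bp, at 42768201 to 42769700 and in place 47. That peptide peak ran past the region and over the next merged region, 150 bp away. The remaining 3 had 500 bp or more at EM and at MM. The third lay on chromosome 17 (11569401 to 11570100), the fourth on chromosome 11 (70551 to 71350) and the fifth on chromosome 19 (43520551 to 43521200). The member with the highest MM score, a position chosen after its values were seen, was on chromosome 5 at 41744701 to 41745500, with 700 bp at COT, 750 bp at EM, 600 bp at MM and place 106 at MM. These 10 members with strong EM, peptide or MM peaks had lost 100 to 250 bp. Most members lie in that range, since losses of 300 bp or more were found in 7.56% of all members.

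Narrowing regions were spread over the genome like the rest. They were found on all 20 chromosomes and made up 8.20% of the eligible regions on chromosome 8, the lowest share, to 10.1% on chromosome 6, the highest. The exact interval of each of the 20 shares held the genome-wide 9.08%. For the place along a chromosome, its length was taken as the end of the last peak on it in any list. The middle of the chromosomes, from 25 to 75% of the length, held 568 members (21.3%, 95% interval 19.7 to 22.9%) and 21.8% of all eligible regions. The outermost 20% of the length on both sides held 69.0% of the members, against 68.5% of all eligible regions.

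Their surroundings were slightly more crowded. Another merged region lay within 1 kb of 1257 members (46.8%, 95% interval 44.9 to 48.7%), against 42.1% of all eligible regions. The median gap to the nearest was 1150 bp (quartiles 500 and 2950 bp), against 1350 bp (550 and 3500 bp). The share within 1 kb was higher in members than in other regions of the same COT width in 12 of 13 classes, but by unequal amounts. It was 42.8% against 42.7% at a COT width of 350 bp and 51.7% against 39.6% at 250 bp. At 750 bp it was lower in members, 40.3% against 48.9%. With lists of equal length it was 42.3%, against 37.8%. Of the 1481 neighbours within 1 kb, 741 (50.03%) were called at all 3 stages, against 48.3% for all eligible regions, 185 (12.5%) at COT alone, against 10.2%, and 137 (9.25%) at EM and MM without COT, against 13.2%.

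The nearer neighbour lay about as often on the side of the moved edge as on the other. In the 1184 members where only 1 edge had moved inwards by 50 bp or more and that had neighbours on both sides, the gap to the next region had a median of 2925 bp on the side of that edge and 2800 bp on the other. The nearer neighbour was on the side of the moved edge in 586 (49.5%) and on the other side in 587 (49.6%).

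Members also lay near each other a little more often. Where an eligible region was followed by another within 5 kb, the next was narrowing in 134 of 981 cases after a member (13.7%, 95% interval 11.6 to 15.97%), against 942 of 9510 cases (9.91%) after any eligible region. Within 1 kb the counts were 50 of 325 (15.4%, 11.6 to 19.8%) and 308 of 2924 (10.5%).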

How the data were processed

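ChIP and input libraries of soybean embryos (16 libraries, 2 biological replicates in each of 8 groups per the labels) stand behind 4 deposited peak lists. The submitters' processing notes list Bowtie 0.12.7 and SAMtools 0.1.19. How peaks were called, at which threshold, and whether replicates were pooled is not given in the sources used here. Each peak's score was computed by the authors, has no stated unit in the deposited lists, and was used as a place within its own list. Each end was taken as the final base of its 50 bp bin, and positions are 1-based.

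Lists were merged and measured with pandas 2.3.3 and NumPy 2.4.6, and intervals come from SciPy 1.17.1. Where several peptide peaks overlapped a region (42 members, 260 eligible regions), the highest-scoring one was used. A peptide peak that overlapped several regions could be used for each of them, and its width could exceed that of a region. Merging was tested on simulated lists of well separated regions with at most 1 peak of a list in each. Neighbouring regions that touch, several peaks of a stage and regions past the width limit were not simulated. A region of the rule's width range with several peaks of a stage was left out: 171 had 1 COT peak and several MM peaks, and 310 the reverse. A further 870 otherwise eligible regions were 900 bp or wider.

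Members and groups were chosen with earlier results of these data known. Named regions are the 10 largest losses, the 5 highest EM and 5 highest EM peptide scores, and the highest COT score on either side of the threshold. Alternatives covered the threshold, the region width, the overlap, the list length, the peptide peak and scaffolds.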

Additional observations from a re-analysis of the deposited data

How the results depend on the processing

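The share and number of narrowing regions, 9.08% and 2686, depend on the threshold. They were 17.6% and 5205 at a loss of 50 bp, 4.62% and 1367 at 150 bp, and 31.3% and 9276 when 100 bp were counted from the median change. With lists of equal length (49566 peaks) the share was 6.76%, and with the higher-scoring 50% of each list 4.74%, or 655 regions. Without the demand for a peptide peak it was 9.91%. Regions of any width (9.24%), reciprocal overlap of 50% (8.76%) and chromosomes without scaffolds (9.07%) gave shares inside the counting interval. The median change of all eligible regions was 100 bp with either shortened set of lists as well. With equal list length the members' median EM width was 400 bp, equal to that of all eligible regions, and the share with a neighbour within 1 kb was 42.3%; the cause was not tested. The median peptide width, 300 bp, was 350 bp under the other alternatives, a shift of 1 bin. The centre share stayed between 19.9 and 21.1%. The comparison within COT width classes under equal list length was chosen after seeing the data. No paired analysis was possible because each stage and antibody has 1 list without replicate values. Depth is unknown, so a width difference between lists cannot be told apart from a difference between libraries.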
